A study of Homo sapiens with 6 samples.

Results

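Splicing factors and the kinases that act on them were followed in Jurkat cells moved from suspension into a collagen gel. The set holds every gene with a probe set whose symbol is SRSF or PRPF with a number, or begins with HNRNP, SF3A, SF3B or LUC7L, together with U2AF1, U2AF2, CLK1 to CLK4, SRPK1, SRPK2, TRA2A and TRA2B. That gave 65 of the 17687 genes named on the arrays: 11 SR proteins, 2 TRA2 proteins, 23 hnRNP proteins, 9 subunits of SF3A and SF3B, 2 of U2AF, 10 PRPF factors, 2 LUC7-like proteins, 4 CLK kinases and 2 SRPK kinases. U2AF1 had 2 probe sets, and the one with the higher mean was used, as for any gene with several. SRSF2, HNRNPK, HNRNPA3, HNRNPA1L3, HNRNPCL3, PRPF8 and LUC7L2 were not analysed here.

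Jurkat is an established human line of leukaemic T cells, from an acute lymphoblastic leukaemia. Total RNA from 6 samples was read on Affymetrix whole-transcript arrays. The control group, 3 arrays, came from Jurkat cells in suspension; the other group, 3 arrays called 3D, came from Jurkat cells mixed into bovine type I collagen at 1.7 mg/mL, left for 1 h while the gel set and for 2 h more under medium, 3 h in all. Both groups were grown in RPMI with serum, and neither carries a genetic change or a drug; the 3D group alone is described as having bicarbonate and Hepes in its gel mix. The titles call the samples biological replicates 1 to 3 without saying what separated them, so p-values measure the spread between these samples. Everything rests on a single cell line.

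Pre-mRNA splicing removes introns in a fixed order of steps. The U1 particle marks the 5′ splice site, with LUC7-like proteins at its side; U2AF and the U2 particle, which carries SF3A and SF3B, mark the 3′ splice site and the branch point; and a particle of U4, U6 and U5, built with PRPF proteins, brings in the catalytic core. SR proteins mostly promote the use of exons and many hnRNP proteins mostly repress it. The serines in the arginine-serine repeats of SR proteins are phosphorylated by SRPK kinases, mainly in the cytoplasm, and by CLK kinases in the nucleus. In T cells such regulators are known to set which forms of surface molecules such as CD45 are made. A whole-transcript array gives a single level per gene here, summed over its forms, so spliced, intron-retaining and decay-targeted forms of these genes are not separated.

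The deposited values are log2 expression and ran from 1.97 to 13.58 over all probe sets, with array medians of 5.55 to 5.64. Pairs of arrays correlated at 0.971 to 0.991. The 13 T cell markers had means of 6.45 to 11.74, and their median level was 9.06, 9.37 and 9.27 on suspension arrays 1, 2 and 3 and 9.36, 9.20 and 9.08 on the 3D arrays. The median level of 36 measured markers of B, myeloid, NK, stromal, endothelial, epithelial and erythroid cells lay between 4.11 and 4.33 on every array. Of those 36, 8 had a mean of at least 6. With 3 arrays a group, precision is limited by their number. The T cell markers had a median difference of -0.21 between 3D and suspension, and its part in the results was not tested.

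The comparison asks which of these genes differ after 3 h in collagen. No member passed the test fixed for it, limma over all 17687 genes with Benjamini-Hochberg adjustment at 0.05: 0 of 65 members and 0 of all genes, 0%, were called, and the smallest adjusted p of a member was 0.372. Within that limit the members lay to the higher side. Their median log2 difference, 3D minus suspension, was 0.14, against -0.02 over all genes. Of the 65 members 45 had a higher mean in 3D and 20 a lower one. At an unadjusted p under 0.05 (limma), 9 members were higher, or 13.8%, where 5.9% of all genes were, and 0 were lower, where 3.97% of all genes were. In a fit of the 8342 genes with a mean of at least 6, 8.75% were higher and 3.61% lower at that p. Of the 59 members among them 9 were higher, or 15.3%, and 0 were lower. The median difference was 0.02 over those genes and 0.14 over those members. All 3 values in 3D lay above all 3 in suspension for 11 members, or 16.9%, where 8.28% of all genes did so, and below them for 1 member, SF3B5, or 1.54%, where 8.03% of all genes did so. By same-numbered pairs, 25 members were higher in all 3, or 38.5%, against 20.3% of all genes. The members lower in all 3 pairs were 6, or 9.23%, against 19.8% of all genes: CLK3, SF3B5, SF3B4, SF3A1, U2AF2 and HNRNPL. These arrays measure RNA from whole cultures, so a change within each cell and a change in the mix of cells cannot be told apart.

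The median moved most with 1 array. Suspension replicate 2 held the lowest of the 6 values for 28 of the 65 members, or 43.1%, while it held the lowest value for 20.3% of all genes. Relative to each member's own mean, the median member stood at -0.22 log2 on that array, and at -0.09, 0.03, 0.02, 0.10 and 0.11 on suspension 1, suspension 3 and 3D replicates 1, 2 and 3. Without suspension replicate 2 the members' median difference was 0.07, against -0.03 over all genes. With any other single array left out it ran from 0.14 to 0.19, highest without suspension replicate 3. In pairs of the same number the members' median difference was 0.06, 0.31 and 0.04 for numbers 1, 2 and 3, so the pair that holds this array shows the widest gap.

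**Figure D1:**
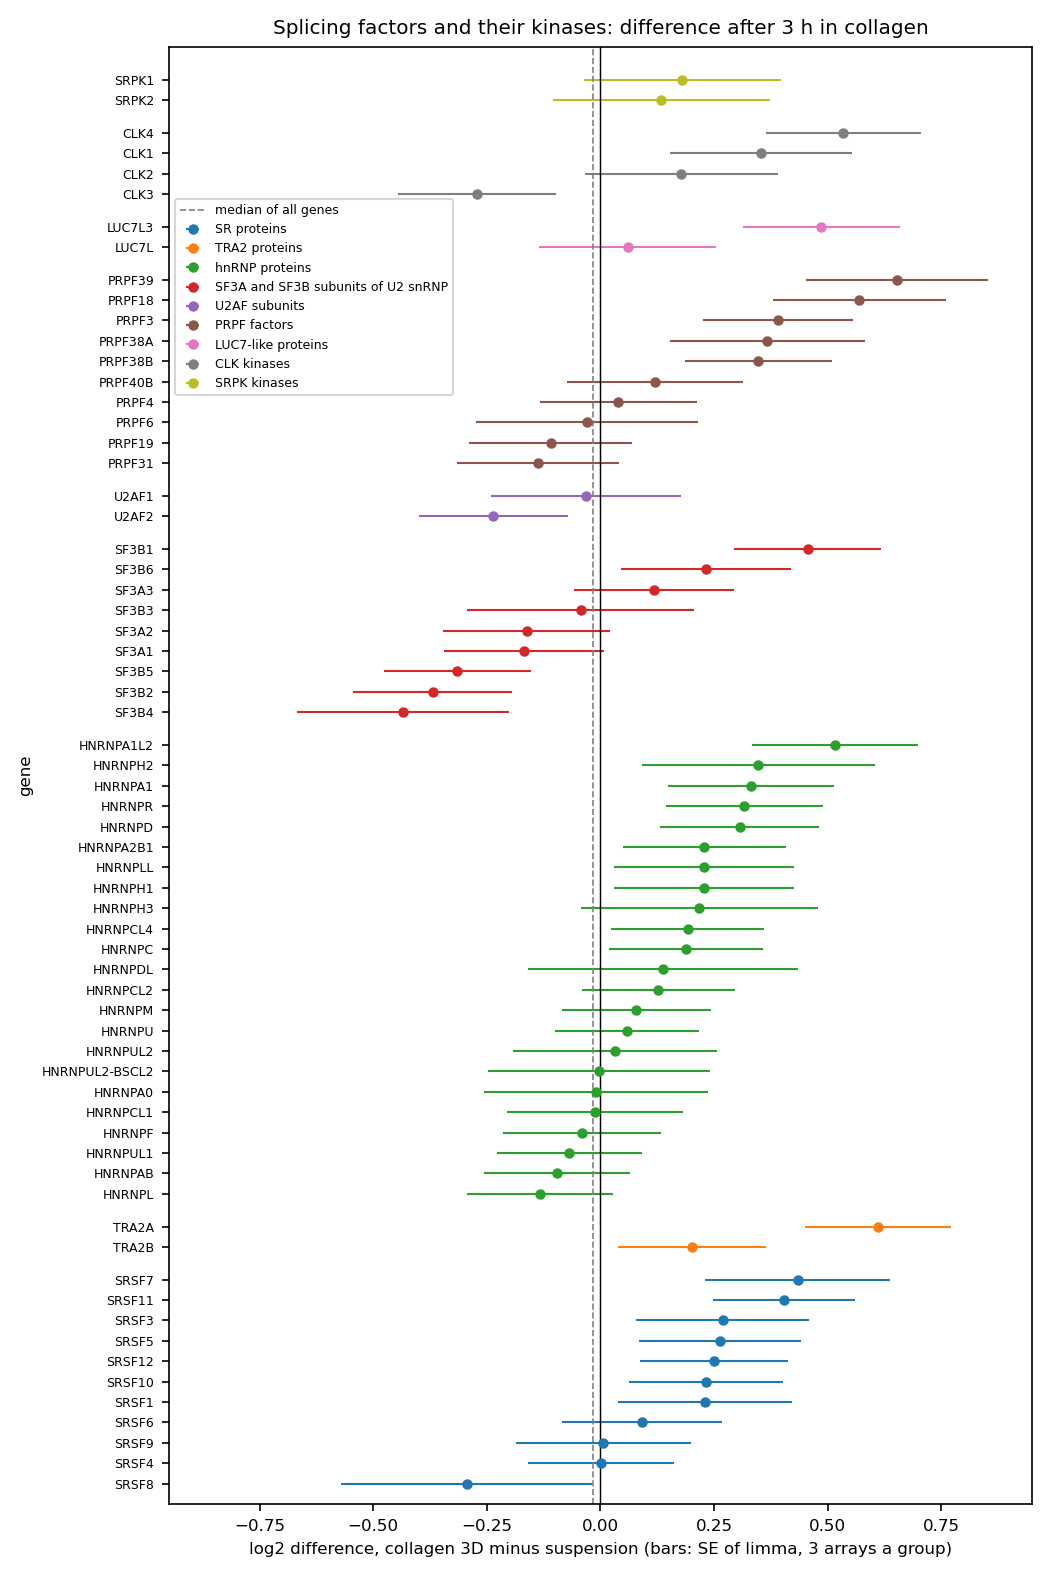
Log2 difference between 3D and suspension for each of the 65 members, grouped by family; points are differences of means of 3 arrays a group, bars are standard errors from limma, and the dashed line is the median of all genes (-0.02). Most points lie to the right of 0, from SF3B4 at -0.43 to PRPF39 at 0.65, and the SF3A and SF3B subunits lie on both sides.

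The titles give both groups the numbers 1 to 3. Over the members, deviations from the group means correlated at 0.734, 0.186 and 0.559 for same-numbered arrays 1, 2 and 3. Suspension 2 with 3D 3 gave 0.417 and suspension 3 with 3D 2 gave 0.415. The match of number 2 is thus weaker than its crossed match, and the pairing is uncertain there. With the replicate number as a block no member passed either, with a smallest adjusted p of 0.0886 (limma), while 16 of all genes did, 0.0905%. Calls among the members came only when the block was joined to a limit of 6 on the mean level, which 59 of the 65 members reached and CLK1, PRPF40B, SRSF12, HNRNPCL1, HNRNPCL2 and HNRNPCL4 did not. In that fit 10 members passed at an adjusted p under 0.05. PRPF39, TRA2A, PRPF18, CLK4, HNRNPA1L2, LUC7L3, SF3B1, SRSF7 and SRSF11 rose, 9 of 59 where 10.6% of the 8342 genes tested rose, and SF3B4 fell, 1 of 59 where 3.78% fell. The shares of members are thus near those of all genes in this fit. It has 2 residual degrees of freedom and 25.0 prior ones, so the spread is mostly shared between genes. The number of members called was 5 without replicate 1, 8 without replicate 2 and 2 without replicate 3. Of these, 4, 6 and 2 rose and 1, 2 and 0 fell. Of the 8342 genes tested, 331 rose and 127 fell without replicate 1. Without replicate 2 the genes were 923 and 534, and without replicate 3 they were 369 and 37. PRPF39 was called in all 7 fits that joined a block to that limit, CLK4, PRPF18 and TRA2A in 6, and SRSF11 in 1. These fits draw on the same arrays, and the share of all genes called in as many fits was not computed. Without replicate 1 the fit had 1 residual degree of freedom and 43.0 prior ones. Without replicate 2 or 3 the prior ones were infinite, so every gene had the same spread there.

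Promoters are shown for members of smallest p on each side, so that their letters can be set beside the direction measured. RefSeq's table (GRCh38.p14) held a promoter for 60 of the 65 members. Among those, CLK4 and PRPF18 had the smallest p on the higher side, and SF3B2 and SF3B5 on the lower side; TRA2A and PRPF39 are named only. Each line gives the 250 bases before the start of the gene, 5′ to 3′ on the gene's strand, in lower case, with matches to the motifs below in capitals.
CLK4, chr5:178627051-178627300, minus strand: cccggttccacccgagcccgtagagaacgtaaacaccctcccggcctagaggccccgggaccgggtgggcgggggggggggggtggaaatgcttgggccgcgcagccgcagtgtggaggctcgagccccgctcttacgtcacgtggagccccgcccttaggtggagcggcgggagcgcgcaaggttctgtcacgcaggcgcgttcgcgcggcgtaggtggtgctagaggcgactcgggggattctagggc
PRPF18, chr10:13586715-13586964, plus strand: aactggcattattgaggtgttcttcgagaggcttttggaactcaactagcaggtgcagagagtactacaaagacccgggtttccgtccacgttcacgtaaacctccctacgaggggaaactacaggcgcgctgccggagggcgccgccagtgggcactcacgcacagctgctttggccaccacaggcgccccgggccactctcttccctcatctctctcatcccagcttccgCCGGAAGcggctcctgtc
SF3B2, chr11:66052114-66052363, plus strand: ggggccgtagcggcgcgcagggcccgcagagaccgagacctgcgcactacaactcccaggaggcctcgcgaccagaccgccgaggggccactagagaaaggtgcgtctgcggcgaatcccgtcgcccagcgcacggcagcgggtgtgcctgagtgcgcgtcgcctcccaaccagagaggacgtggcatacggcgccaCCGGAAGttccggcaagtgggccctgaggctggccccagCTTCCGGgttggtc
SF3B5, chr6:144095574-144095823, minus strand: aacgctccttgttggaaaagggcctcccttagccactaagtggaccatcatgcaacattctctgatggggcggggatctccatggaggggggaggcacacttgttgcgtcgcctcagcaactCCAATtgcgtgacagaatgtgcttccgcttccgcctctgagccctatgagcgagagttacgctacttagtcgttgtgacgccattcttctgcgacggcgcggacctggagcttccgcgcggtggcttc
The letters searched, on both strands, were CCGGAAG (an ETS site), the palindromic NRF1 site, CCAAT (the CCAAT box), TGACGTCA (CRE), AAGATGGCG (YY1) and TATAAA (the TATA box); no motif holds another. PRPF18 has CCGGAAG at position -18 from the start, SF3B2 has it at -53 and, on the other strand, at -14, and SF3B5 has CCAAT at -128. The 250 bases of CLK4 hold no match. CCGGAAG was found in 14 of the 60 members' windows, or 23.3%, and in 11.9% of the 14250 windows of genes on the arrays; CCAAT was found in 25, or 41.7%, against 34.6%, and TATAAA in 5, or 8.33%, against 8.99%. The other letters were in 0 of the 60 windows, against 1.53% (NRF1), 2.34% (CRE) and 0.765% (YY1) of all windows. G and C made up a median of 63.8% of the members' windows and 62.4% of all windows, and the 4 printed range from 58.0% in SF3B5 to 71.2% in CLK4. CCGGAAG is thus in a window of a member measured higher, PRPF18, and of a member measured lower, SF3B2.

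Of the 6 kinases that phosphorylate SR proteins 0 passed the test after adjustment; 5 had a higher mean in 3D and CLK3 a lower one. CLK4, a nuclear kinase that phosphorylates both serine and tyrosine, measured 7.93, 7.87 and 8.30 in suspension and 8.47, 8.58 and 8.66 in 3D, given as for later genes in the order of replicates 1, 2 and 3. All 3 values in 3D lay above all 3 in suspension. The means were 8.03 ± 0.24 (SD, n = 3) and 8.57 ± 0.10 (SD, n = 3), a log2 difference of 0.54 ± 0.17 (SE), or 1.45-fold, with an adjusted p of 0.399 (limma). CLK1, the kinase best known for splicing of its own transcript with retained introns, measured 4.70, 5.00 and 4.68 in suspension and 5.30, 4.75 and 5.39 in 3D. Its 3D replicate 2 lay among the suspension values, and the difference was 0.35 ± 0.20 (SE), with a mean below the limit of 6.

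CLK2 measured 7.70, 8.29 and 8.16 in suspension and 7.99, 8.58 and 8.10 in 3D, with groups that overlapped and a difference of 0.18 ± 0.21 (SE). CLK3 measured 7.66, 7.21 and 7.63 in suspension and 7.33, 7.14 and 7.21 in 3D, lower in each same-numbered pair, with 3D replicates 1 and 3 above suspension replicate 2. The difference was -0.27 ± 0.17 (SE), or 1.21-fold lower, and its 95% interval ran from -0.66 to 0.11 (limma).

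SRPK1, a cytoplasmic kinase that prepares SR proteins for import into the nucleus, measured 7.81, 7.25 and 7.88 in suspension and 8.15, 7.74 and 7.58 in 3D. SRPK2, its close relative, measured 6.97, 6.36 and 6.51 in suspension and 7.23, 6.39 and 6.62 in 3D. Both overlapped between groups, with differences of 0.18 ± 0.22 (SE) and 0.13 ± 0.24 (SE). In both groups the highest SRPK2 value is that of replicate 1 and the lowest that of replicate 2.

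**Figure D2:**
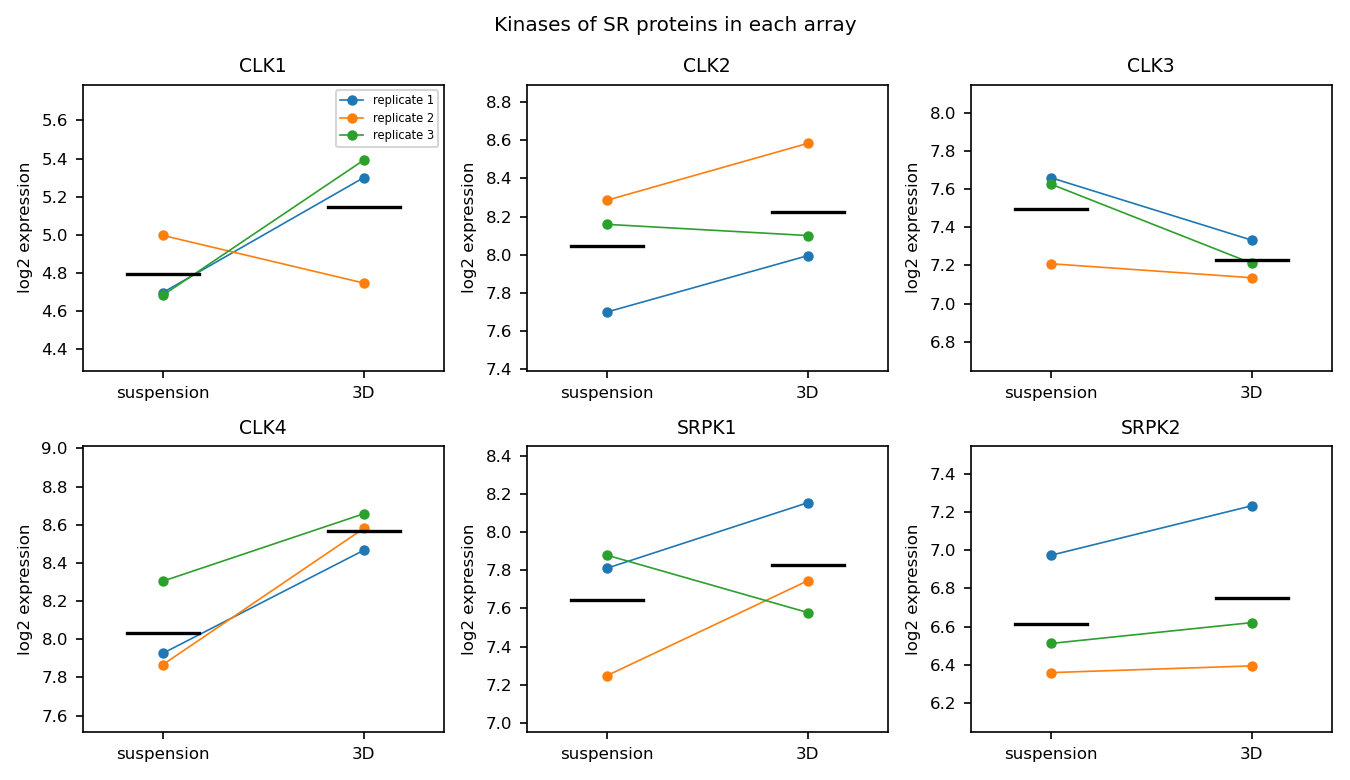
Log2 expression of CLK1 to CLK4 and of SRPK1 and SRPK2 in suspension and in 3D; dots are single arrays, colored lines join arrays of the same replicate number, black bars are means of 3 arrays, and every panel spans 1.5 log2. CLK4 is the kinase whose 3D values, 8.47 to 8.66, all lie above those in suspension, 7.87 to 8.30.

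Levels of different probe sets cannot be set against each other, but the gap between 2 relatives on the same array can be followed from group to group. This was done for the 10 pairs within the families of 2 to 4 members. CLK3 minus CLK4 was -0.27, -0.66 and -0.68 on the suspension arrays and -1.13, -1.44 and -1.45 on the 3D arrays, a change of -0.81. TRA2A minus TRA2B was -1.64, -1.52 and -1.70 in suspension and -1.20, -1.37 and -1.06 in 3D, a change of 0.41. Those were the 2 of the 10 pairs without overlap between groups. Each holds a gene whose own groups did not overlap, CLK4 or TRA2A, and no share for pairs of other genes was computed. By same-numbered arrays CLK3 minus CLK4 changed by -0.87, -0.79 and -0.77, nearly the same step in each, and TRA2A minus TRA2B by 0.44, 0.15 and 0.64. LUC7L minus LUC7L3 changed by -0.43 on average, and by -0.21, -0.37 and -0.70 in the pairs, with overlap between groups. The gap between SRPK1 and SRPK2 changed by 0.05, with pairs on both sides of 0. An exact two-sided permutation test over arrays gave p = 0.1 for CLK3 with CLK4 and for TRA2A with TRA2B, and 0.5 after Benjamini-Hochberg adjustment over the 10 pairs; an exact paired permutation test over the same-numbered arrays, added after seeing the data, gave p = 0.25 for CLK3 with CLK4, TRA2A with TRA2B and LUC7L with LUC7L3. These are the smallest values that 3 against 3 arrays and 3 pairs allow, so neither test could have passed 0.05, and a missed threshold says nothing here.

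Among SR proteins, which bind exonic enhancers and recruit the splicing machinery, 10 of 11 had a higher mean in 3D, or 90.9%, where 47.4% of all genes did, with a median log2 difference of 0.23. SRSF8 was the exception. At an unadjusted p under 0.05 (limma) 1 of 11 was higher, or 9.09%, against 5.9% of all genes, and 0 were lower, against 3.97%. On suspension replicate 2 the median SR gene stood 0.34 below its own mean, written -0.34 log2, and in pairs the family's median difference was 0.00, 0.38 and 0.08. The family's shift thus sits mainly in the pair of number 2.

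SRSF11, a protein with an arginine-serine domain that works with U2AF, measured 9.04, 8.89 and 9.08 in suspension and 9.55, 9.32 and 9.35 in 3D. Its groups did not overlap. The means were 9.004 ± 0.10 (SD, n = 3) and 9.41 ± 0.12 (SD, n = 3), a difference of 0.40 ± 0.16 (SE) with an adjusted p of 0.450 (limma). SRSF7, a zinc-knuckle SR protein that shuttles between nucleus and cytoplasm, had 0.43 ± 0.20 (SE): it measured 8.57, 8.27 and 8.99 in suspension and 9.03, 8.87 and 9.22 in 3D, higher in each pair though the groups overlapped.

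The SR gene of highest mean, SRSF5, measured 11.41, 10.93 and 11.36 in suspension and 11.36, 11.57 and 11.55 in 3D, a difference of 0.26 ± 0.18 (SE). SRSF12, the SR gene of lowest mean, measured 3.88, 4.01 and 4.10 in suspension and 4.05, 4.34 and 4.35 in 3D, with a mean below the limit of 6. SRSF8, a gene without introns related to SRSF2, measured 8.03, 7.05 and 7.47 in suspension and 7.67, 7.23 and 6.77 in 3D. Its values spread widely within both groups, and the difference was -0.29 ± 0.28 (SE). SRSF1, the founding SR protein, had 0.23 ± 0.19 (SE), with 1 low value, 10.69 on suspension replicate 2, beside 11.13 to 11.36 on the other 5 arrays. SRSF4 (0.00 ± 0.16 SE) and SRSF9 (0.01 ± 0.19 SE) lay closest to 0, with 95% intervals of -0.35 to 0.36 and -0.42 to 0.43.

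TRA2A and TRA2B are SR-like proteins that bind purine-rich enhancers. TRA2A had the smallest p of all 65 members, rank 138 among all genes. TRA2A measured 9.17, 9.24 and 9.36 in suspension and 9.73, 9.83 and 10.04 in 3D, so the groups stood clear of each other. The means were 9.26 ± 0.10 (SD, n = 3) and 9.87 ± 0.16 (SD, n = 3), a difference of 0.61 ± 0.16 (SE), or 1.53-fold, with an adjusted p of 0.372 (limma) and a 95% interval of 0.26 to 0.96. TRA2B measured 10.81, 10.76 and 11.06 in suspension and 10.93, 11.20 and 11.11 in 3D. It was higher in every pair, by 0.20 ± 0.16 (SE) on average, with overlapping groups.

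The hnRNP proteins, which coat nascent transcripts and often block splice sites, had a median difference of 0.14, with 16 of 23 higher in 3D and 7 lower. At an unadjusted p under 0.05 (limma) 1 was higher, or 4.35%, below the 5.9% of all genes, and 0 were lower. The 1 was HNRNPA1L2, which measured 7.26, 6.94 and 7.09 in suspension and 7.90, 7.37 and 7.56 in 3D, without overlap and with a difference of 0.52 ± 0.18 (SE). Its sequence is nearly that of HNRNPA1, and the probes may read either copy. HNRNPA1 itself, a repressor that also exports mRNA, measured 12.07, 11.66 and 12.26 in suspension and 12.24, 12.42 and 12.33 in 3D, with suspension replicate 2 lowest and a difference of 0.33 ± 0.18 (SE).

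HNRNPD, a protein that binds AU-rich elements of mRNA, measured 10.86, 10.33 and 10.71 in suspension and 10.98, 10.97 and 10.88 in 3D. It is the other hnRNP gene without overlap, though by a narrow gap, with a difference of 0.31 ± 0.18 (SE). The 2 of 23 hnRNP genes higher without overlap are 8.70%, near the 8.28% of all genes. HNRNPR had 0.32 ± 0.17 (SE), and HNRNPH2, which binds runs of G, had 0.35 ± 0.26 (SE). HNRNPLL, known in T cells for silencing exons of CD45, measured 7.23, 7.12 and 7.70 in suspension and 7.81, 7.36 and 7.56 in 3D. The groups overlapped, and pair 3 ran the other way, by -0.14. HNRNPL, its relative with the same target, had the lowest difference of the family at -0.13 ± 0.16 (SE). HNRNPU, a nuclear scaffold protein, had 0.06 ± 0.16 (SE), with a 95% interval of -0.29 to 0.41, so a change of over 0.41 in either direction lies outside it. HNRNPCL4, the hnRNP gene of lowest mean, measured 3.01, 3.01 and 3.24 in suspension and 3.51, 3.18 and 3.14 in 3D. HNRNPCL1, HNRNPCL2 and HNRNPCL4 are near-identical copies related to HNRNPC, and HNRNPUL2-BSCL2 is a read-through that shares sequence with HNRNPUL2, so values of these genes may hold signal of another.

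For some members the arrays of the same number lay together across both groups. HNRNPDL, an hnRNP D relative that regulates its own transcript, measured 11.29, 10.22 and 10.29 in suspension and 11.24, 10.48 and 10.51 in 3D. Both arrays of number 1 stood about alike and above the other 4, so that the number means were 11.27, 10.35 and 10.40. SF3B3 showed the same layout, with 9.66, 8.91 and 8.86 in suspension and 9.52, 8.89 and 8.89 in 3D, and a group difference of -0.04 ± 0.25 (SE). HNRNPH3 was opposite, with 10.38 for number 1 and 11.04 and 11.17 for numbers 2 and 3.

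**Figure D3:**
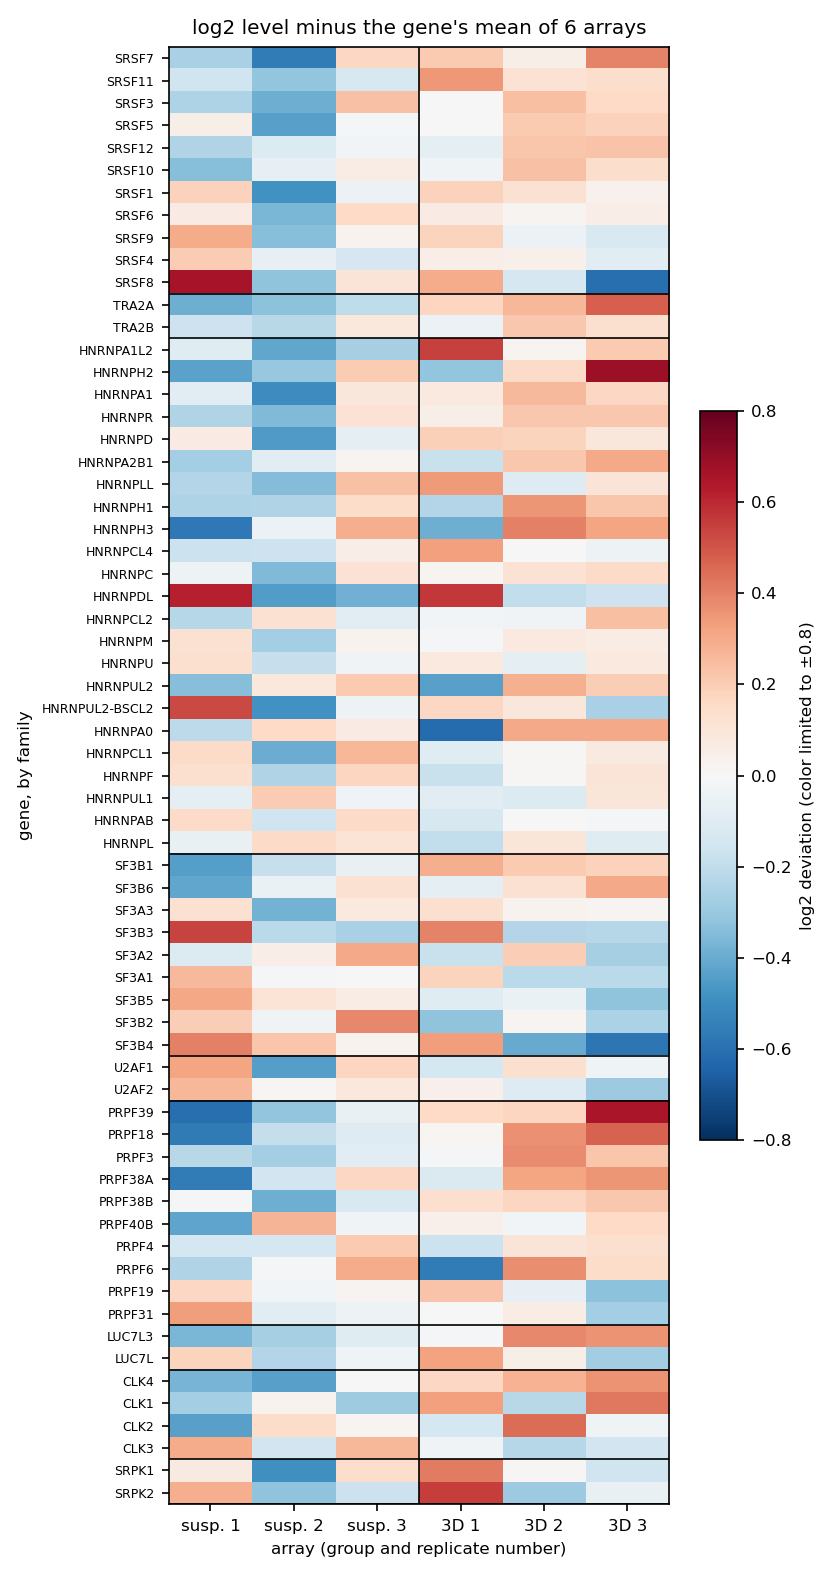
Log2 level of each member on each array minus its mean of the 6 arrays, red above and blue below, with families parted by lines and the groups by a vertical line; color is limited to 0.8 in either direction. Suspension replicate 2 is blue for most SR and hnRNP genes (medians -0.34 and -0.24), and rows such as HNRNPDL and SF3B3 are red on both arrays of number 1.

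SF3A and SF3B, the protein complexes with which the U2 particle holds the branch point, were split. Of 9 subunits 3 were higher and 6 lower in 3D, with a median difference of -0.16, and the members of smallest p on the lower side are mostly found here. SF3B1, the large scaffold that clamps the branch point and is mutated in blood cancers, measured 7.59, 7.84 and 7.97 in suspension and 8.32, 8.24 and 8.21 in 3D. The groups did not overlap; the means were 7.80 ± 0.19 (SD, n = 3) and 8.25 ± 0.06 (SD, n = 3), a difference of 0.46 ± 0.16 (SE) with an adjusted p of 0.423 (limma).

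SF3B4, which touches the pre-mRNA next to the branch point, had the lowest difference of all members. SF3B4 measured 11.18, 10.997 and 10.81 in suspension and 11.11, 10.37 and 10.20 in 3D. It was lower in each pair, by -0.07, -0.63 and -0.61, and the difference was -0.43 ± 0.23 (SE), or 1.35-fold lower. SF3B2, its binding partner, measured 8.45, 8.22 and 8.63 in suspension and 7.93, 8.27 and 7.995 in 3D. Pair 2 did not differ in the same direction (0.05), and the difference was -0.37 ± 0.17 (SE) with an adjusted p of 0.518 (limma).

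SF3B5, a small subunit, measured 7.66, 7.46 and 7.41 in suspension and 7.26, 7.30 and 7.03 in 3D, the member whose 3D values all lay below suspension. Its difference was -0.32 ± 0.16 (SE), or 1.24-fold lower, with an adjusted p of 0.543 (limma). SF3A1 measured 9.74, 9.47 and 9.48 in suspension and 9.66, 9.26 and 9.26 in 3D, lower in each pair but with overlap, by -0.17 ± 0.18 (SE). SF3A2 measured 9.95, 10.11 and 10.36 in suspension and 9.88, 10.25 and 9.79 in 3D, with a difference of -0.16 ± 0.18 (SE); without replicate 3 of both groups it turned to 0.04 with the block. SF3B6, which sits at the branch point adenosine, was higher in each pair at 0.23 ± 0.19 (SE).

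The U2AF subunits recognise the end of the intron. U2AF2, which binds the pyrimidine tract, measured 9.64, 9.38 and 9.46 in suspension and 9.42, 9.27 and 9.09 in 3D. It was lower in each pair, with overlap between groups and a difference of -0.24 ± 0.16 (SE). U2AF1, which reads the final AG, had -0.03 ± 0.21 (SE) on the probe set used and -0.12 on the other, and both probe sets were lowest on suspension replicate 2, at 10.15 and 9.89.

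On the side of the 5′ splice site, LUC7L3, a U1-associated protein with a long arginine-serine tail, measured 9.44, 9.53 and 9.70 in suspension and 9.79, 10.19 and 10.16 in 3D. The groups did not overlap, and the means were 9.56 ± 0.14 (SD, n = 3) and 10.04 ± 0.22 (SD, n = 3), a difference of 0.49 ± 0.17 (SE) with an adjusted p of 0.423 (limma). LUC7L, its relative, had 0.06 ± 0.19 (SE), and pair 3 ran the other way (-0.25). The change in the gap between them is given with the kinases.

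PRPF factors, which build and run the catalytic spliceosome, had the most members without overlap. Of 10, 7 were higher in 3D and 3 lower, with a median difference of 0.23; 3 were higher at an unadjusted p under 0.05 (limma), against 5.9% of all genes, and 0 were lower, against 3.97%. Higher without overlap were 4, against 8.28% of all genes. PRPF39, a U1-associated protein that helps select 5′ splice sites, had the highest difference of all members. It measured 7.18, 7.47 and 7.73 in suspension and 7.94, 7.96 and 8.44 in 3D. The means were 7.46 ± 0.27 (SD, n = 3) and 8.11 ± 0.28 (SD, n = 3), a difference of 0.65 ± 0.20 (SE), or 1.57-fold, at percentile 98.6 of all genes' differences and with an adjusted p of 0.399 (limma).

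PRPF18, which acts in the second catalytic step, measured 7.21, 7.58 and 7.67 in suspension and 7.78, 8.14 and 8.24 in 3D. The pairs gave nearly the same gap, 0.58, 0.56 and 0.58, while the levels differed between replicates by nearly the same steps in both groups, and the difference was 0.57 ± 0.19 (SE) with an adjusted p of 0.405 (limma). PRPF3, a scaffold of the U4 and U6 particle, measured 9.06, 9.01 and 9.19 in suspension and 9.27, 9.66 and 9.504 in 3D, a difference of 0.39 ± 0.16 (SE) without overlap. PRPF38B measured 7.86, 7.48 and 7.75 in suspension and 8.01, 8.04 and 8.09 in 3D, the fourth of the family without overlap, at 0.35 ± 0.16 (SE).

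PRPF38A, a factor of the activation step and the PRPF gene of highest mean, measured 9.15, 9.56 and 9.88 in suspension and 9.60, 10.03 and 10.07 in 3D, higher in each pair by 0.37 ± 0.21 (SE) on average. PRPF40B, which can bridge splice sites and has the lowest mean of the family, measured 5.15, 5.84 and 5.54 in suspension and 5.62, 5.55 and 5.73 in 3D. PRPF6, which ties U5 to the U4 and U6 particle, PRPF19, a ubiquitin ligase of the catalytic core, and PRPF31, a U4 protein, had -0.03 ± 0.24 (SE), -0.11 ± 0.18 (SE) and -0.14 ± 0.18 (SE). PRPF4, which binds PRPF3, had 0.04 ± 0.17 (SE), so 2 partners in the same particle differ by 0.39 and 0.04 here, a gap that was not tested.

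**Figure D4:**
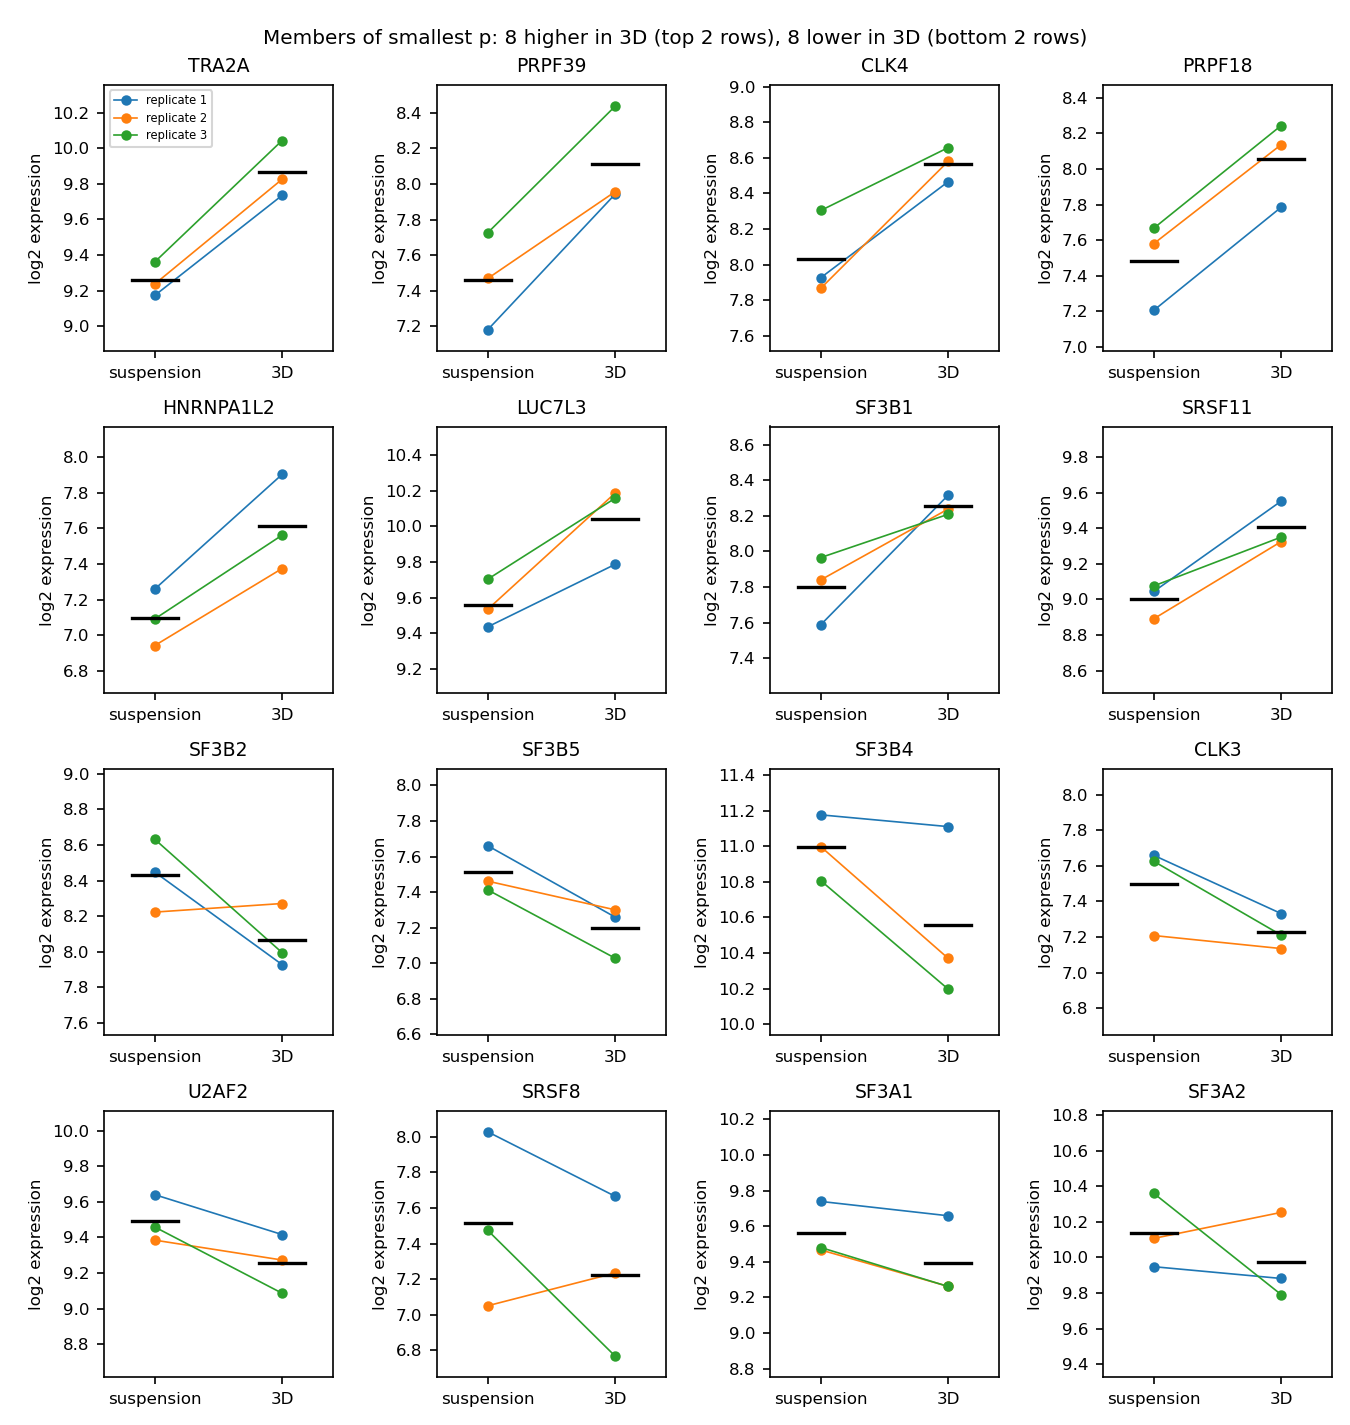
Log2 expression on each array for the 8 members of smallest p on the higher side (top rows) and the 8 on the lower side (bottom rows); dots are arrays, lines join arrays of the same replicate number, black bars are means of 3 arrays, and every panel spans 1.5 log2. The 8 higher members have no overlap between groups, with differences from 0.40 (SRSF11) to 0.65 (PRPF39), while of the 8 lower ones SF3B5 alone has none. Both sets were picked by p on these same arrays, which favours genes without overlap. Over all genes 8.28% were higher and 8.03% lower without overlap.

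Other genes of the splicing machinery were read from a list of 147 genes, of which 135 were measured. Their median difference was 0.10, with 88 higher and 47 lower. At an unadjusted p under 0.05 (limma) 16 were higher, or 11.9%, against 5.9% of all genes, and 5 lower, or 3.70%, against 3.97%; 0 passed after adjustment. By role, 7 of 29 SR-related genes were higher and 1 lower at that p, and 6 of 30 regulators of alternative splicing were higher and 0 lower. In the Sm and LSm rings 1 of 13 genes was higher and 2 were lower, with a median difference of 0.10 and 8 genes with a higher mean. Among genes of U2 and the branch site 1 of 16 was higher and 2 were lower, with a median of 0.13 and 10 with a higher mean. In the largest class, U4, U6 and U5 with the catalytic core, 1 of 31 was higher, or 3.23%, and 0 were lower. Its median was 0.02, with 17 higher means and 14 lower ones. Of 13 further kinases, phosphatase subunits and importers of SR proteins 0 were on either side, and the 3 U1 proteins had differences of -0.37 to -0.09.

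PTBP2, the neuronal relative of a repressor that binds pyrimidine tracts, measured 8.16, 8.42 and 8.43 in suspension and 8.97, 9.30 and 9.25 in 3D, a difference of 0.84 ± 0.17 (SE). NKTR, a cyclophilin with arginine-serine repeats, had 0.75 ± 0.16 (SE), RBM39, an SR-related relative of U2AF2, 0.67 ± 0.18 (SE), and CCNL1, a cyclin of splicing-related kinases, 0.57 ± 0.17 (SE). On the lower side, PUF60, which helps U2AF2 at the 3′ splice site, had -0.47 ± 0.16 (SE), the Sm proteins SNRPB and SNRPD2 had -0.54 ± 0.19 (SE) and -0.39 ± 0.15 (SE), and RBM10, an exon repressor, had -0.40 ± 0.18 (SE). None of the 8 overlapped between groups, and their adjusted p values ran from 0.330 to 0.505 (limma). They were picked by p on these same arrays, which favours genes without overlap. Of the 135 genes 20 were higher without overlap, or 14.8%, against 8.28% of all genes. Lower without overlap were 8, or 5.93%, against 8.03% of all genes.

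The members' differences ran with position in the genome, as those of all genes did. Over the 65 members Spearman's rho between difference and the number of annotated genes within 500 kb was -0.38, and 0.19 for gene span; across 17683 genes with a position it was -0.28 and 0.25. Members lie on the same 6 arrays and are no independent replicates, so these are descriptions. The 9 members higher at an unadjusted p under 0.05 had a median span of 32.2 kb and 23 neighbours, the other 56 members 16.0 kb and 36 neighbours. SF3B4 and SF3B2 have 57 and 72 neighbours, PRPF39 and TRA2A 20 and 24. SF3B5, with a span of 0.69 kb and 15 neighbours, and PRPF3, with 58 neighbours, lie off that layout. With each array's linear trend on span and neighbours removed, 11 of 65 members were higher at an unadjusted p under 0.05 (limma), where 5.26% of all genes were, and 0 were lower, where 3.62% were; the members' median was 0.15.

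**Figure D5:**
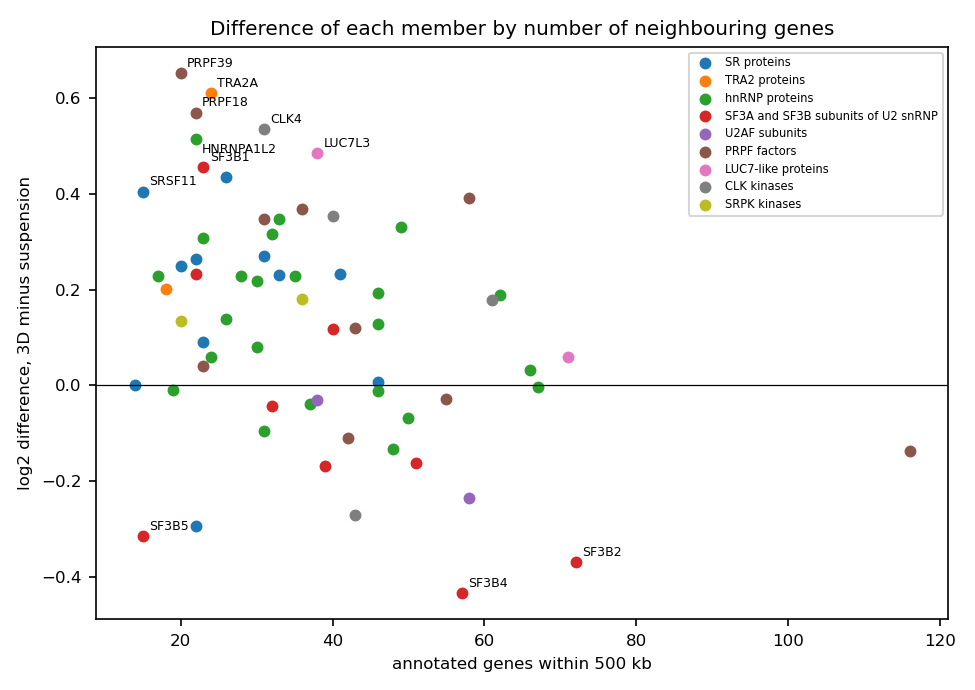
Log2 difference of each member, 3D minus suspension, against the number of annotated genes within 500 kb of it, colored by family; 8 members of smallest p on the higher side and 3 on the lower side are named. Members with few neighbours reach the highest values (PRPF39, 20 neighbours, 0.65), and SF3B2 (72 neighbours, -0.37) and SF3B4 (57, -0.43) lie low on the right, with a Spearman correlation of -0.38 over 65 members.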

How the data were processed

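The authors deposited log2 expression values by probe set and array, made with RMA and the Transcriptome Analysis Console, per the submitters' processing notes; versions, probe annotation and genome build are not given in the sources used here. The RMA method subtracts background, forces arrays to a common distribution and summarises probes, which shrinks differences of dim probe sets. Values were used as deposited, with 0 other columns of per-sample values.

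Of 21448 probe sets 17709 had 1 gene symbol, 0 had several and 3739 had none; all 17709 matched RefSeq (GRCh38.p14) by gene identifier. Spans and neighbours within 500 kb came from RefSeq. The probe set of highest mean was kept, giving 17687 genes. Groups and numbers came from the titles. limma 3.58.1 (R 4.3.3) compared 3 arrays with 3, two-sided, with no block and no filter, adjusted over all genes (4 residual, 6.79 prior degrees of freedom); it was tested on simulated data. scipy 1.17.1 and matplotlib 3.10.9 ran under Python 3.11.15.

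Deviations of same-numbered arrays from their group means correlated at 0.521, 0.120 and 0.337. Each was over 0.1, so the numbers were taken as pairs for the pair values and the block fits. The reported fit used no pairing. Matching suspension 2 with 3D 3 and suspension 3 with 3D 2 also gave values over 0.1 (0.230 and 0.149). The members and gene lists were chosen with earlier results of these data known. Values on each array are given for all kinases, for the 8 members of smallest p in each direction and for the highest and lowest mean of each family of over 3; further members were named after their values were seen. Of the other splicing genes, 4 in each direction are named.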

Additional observations from a re-analysis of the deposited data

How the results depend on the processing

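The members' median difference stayed above 0 in all settings, and 0 members passed without the limit of 6 on the mean. Settings with the replicate block and another normalization, the crossed numbers, and the block with the limit and a further change were chosen after seeing the data. Genes called, 0 as reported, were 16 with the replicate block (21, 150 and 36 without replicates 1, 2 and 3), 47 with the crossed numbers, 6 with the block after quantile normalization and 22 with the block after removing the span and neighbour trend. With the limit of 6 and the replicate block they were 1199 (458, 1457 and 406 without replicates 1, 2 and 3), 995 with crossed numbers, 1216 after quantile normalization and 941 after removing the trend; the members called, 0 as reported, were 10 (5, 8 and 2), 7, 8 and 9. Members higher at an unadjusted p under 0.05 (limma), 9 as reported, ranged from 6 to 17 with an array or pair left out (14 without suspension replicate 3), and were 14 with the block and trend removed, 16 with the limit and block, 16 with crossed numbers and limit, and 15 with limit, block and trend removed. The share of all genes higher at that p rose too, from 5.9% as reported to 9.07%, 20.0%, 18.4% and 17.1% in these 4 settings. With an array or pair left out that share ran from 3.86% to 17.8%. Members lower, 0 as reported, were 2 with the replicate block, 2 after quantile normalization, 2 with crossed numbers, 4 with block and quantile normalization, 3 with limit and block, 3 with limit and crossed numbers, 6 with limit, block and quantile normalization, 1 with limit, block and trend removed, and 0 to 6 with an array or pair left out; the share of all genes lower, 3.97% as reported, was 7.36%, 4.53%, 7.21%, 8.30%, 11.99%, 10.96%, 16.5% and 9.76% in these 8 settings. The share of all genes lower ran from 2.22% to 14.8% with an array or pair left out. The members' median, 0.14 as reported, ran from 0.04 to 0.21 there. Of 644 values for 26 named members under 26 settings 7 turned sign, all with an array or pair left out: PRPF40B ran from -0.061 to 0.33 (0.29 without the block), and was -0.052 with the block without replicate 1; SRPK1 from -0.019 to 0.42 (0.30 without the block); SRPK2 from -0.11 to 0.31; CLK2 from -0.00029 to 0.30; and SF3A2 reached 0.040 with the block without replicate 3, with the limit or without it. The cause was not tested. Dim members (6 with means under 6) have no stated detection limit.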
